A study of Mus musculus with 2 samples.

Results

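The proteasome, the protease that removes ubiquitin-tagged proteins, is described here through its genes in mouse primary neurospheres. The genes were all those whose symbol starts with Psma, Psmb, Psmc, Psmd, Psme, Psmf or Psmg and that had at least 50 unique molecular identifiers (UMIs) over the kept cells. Of 19144 genes in the table, 49 carried such a symbol and 47 reached the minimum, against 11057 genes of any name that reached it. Psmb9, with 71 UMIs, was the member nearest above the minimum, and Psmb8, with 31 UMIs, and Psmb11, with 4 UMIs, fell below it. Psmb8 and Psmb11 are given with their counts wherever they belong to a role, and every value over the members is over the 47. Psmc3ip shares the prefix only: it encodes a meiotic recombination factor that binds a proteasome ATPase, and it is no subunit.

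Forebrain tissue lining the lateral ventricles was taken from CD1 mouse embryos, and its cells were grown in serum-free medium with leukemia inhibitory factor (LIF) at 10 ng/mL. Spheres of 50 µm or more were scored after 7 to 10 days in culture. The labels list 2 samples of this group and no other group, genotype or treatment. They do not say how many embryos were pooled. RNA was counted by Drop-seq, which tags the 3′ end of each captured RNA molecule with a cell barcode and a UMI. The series text speaks of nuclei and the labels' protocols of cells, so barcodes are called cells without settling which holds. No barcode could be assigned to a sample, so the data are 1 pooled sample with no replicate error. No test was run, and each range in brackets after a value is a 95% interval of counting error only.

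The proteasome is built from a barrel-shaped core particle and a regulatory particle that caps it. The core has outer rings of alpha subunits and inner rings of beta subunits, some of which carry the proteolytic sites. The regulatory particle has a base, with a ring of ATPases that unfold substrates, and a lid, which removes ubiquitin. In a core capped at both ends each alpha, beta, ATPase and lid subunit is present in equal number. Under interferon, immune counterparts can replace the catalytic beta subunits, which changes the peptides made for antigen presentation. Dividing progenitors need the proteasome to degrade cyclins and other cell cycle proteins.

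The 3765 kept cells held 17395968 UMIs, at a median of 3869 per cell (range 638 to 54060). The neural stem cell or radial glia list, in which 11 of 11 genes in the table had at least 50 UMIs, stood at 14100.3 counts per 1000000 UMIs (CPM), and Fabp7 alone at 7166 CPM. Microglial markers had 2 UMIs in all, fibroblast markers 13 and endothelial markers 81.

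The 47 members together took 201080 UMIs, or 11559 CPM (11509 to 11610). The 14 constitutive core genes supplied 5874 CPM, the 8 lid genes 2057 CPM, the 6 base ATPase genes 1622 CPM and the 3 other base genes 732 CPM. The remaining members were low: the 4 core chaperones summed to 529.8 CPM, the 5 activators to 354 CPM and the 3 base chaperones to 210.4 CPM. The median member stood at 211 CPM, against 29.3 CPM for the median of all 11057 genes. Because 1 UMI stands for 1 molecule tagged at its 3′ end, levels were not divided by gene length. All comparisons between genes below are of CPM on that scale.

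Levels within the core were spread widely. Psma7 (chromosome 2, 180036374 to 180042433), encoding an alpha ring subunit, was the highest member at 976 CPM (962 to 991) and ranked 113 among all genes. Psma2 followed in the alpha ring at 603 CPM, and Psma6, Psma5 and Psma1 lay close together at 369, 358 and 340.3 CPM. Psma4 stood at 272 CPM. Psma3 (chromosome 12, 70974621 to 70996347) was the lowest core gene at 119 CPM (113 to 124), so Psma7 exceeded it 8.24-fold (7.87 to 8.63). In the beta ring Psmb1 led at 791 CPM, followed by the catalytic gene Psmb6 at 592 CPM, Psmb4 at 447 CPM, Psmb2 at 395 CPM and Psmb3 at 299 CPM. The other catalytic genes, Psmb7 at 172 CPM and Psmb5 at 141 CPM, were the lowest of the beta ring. Between neighbours in this order, intervals overlapped for Psma5 (349 to 367) and Psma6 (360.5 to 379) and for no other core pair within a ring.

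The regulatory particle genes that fall under the symbol rule were more even. Listed genes outside the rule lay beyond their range, with Shfm1 of the lid at 1184 CPM and Adrm1 at 70.2 CPM. The ATPase genes ran from Psmc2 at 196 CPM and Psmc4 at 199 CPM through Psmc6 at 252 CPM, Psmc5 at 270.4 CPM and Psmc3 at 322 CPM to Psmc1 at 383 CPM. Psmc2 and Psmc4 did not differ beyond counting error. In the base, Psmd4, which encodes a ubiquitin receptor, stood at 318 CPM, and the scaffold genes Psmd2 and Psmd1 at 211 and 203 CPM. The lid genes ran from Psmd3 at 145 CPM to Psmd7 at 394 CPM. Between them were Psmd13 at 169 CPM, Psmd11 at 229.6 CPM, Psmd8 at 231 CPM, Psmd6 at 243 CPM, Psmd14 at 299.6 CPM and Psmd12 at 345 CPM. Intervals overlapped for Psmd1 with Psmd2, for Psmd8 with Psmd11 and for Psmd6 with Psmd8. Psmd14 encodes the deubiquitinase that cuts ubiquitin chains off the substrate.

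**Figure D1:**
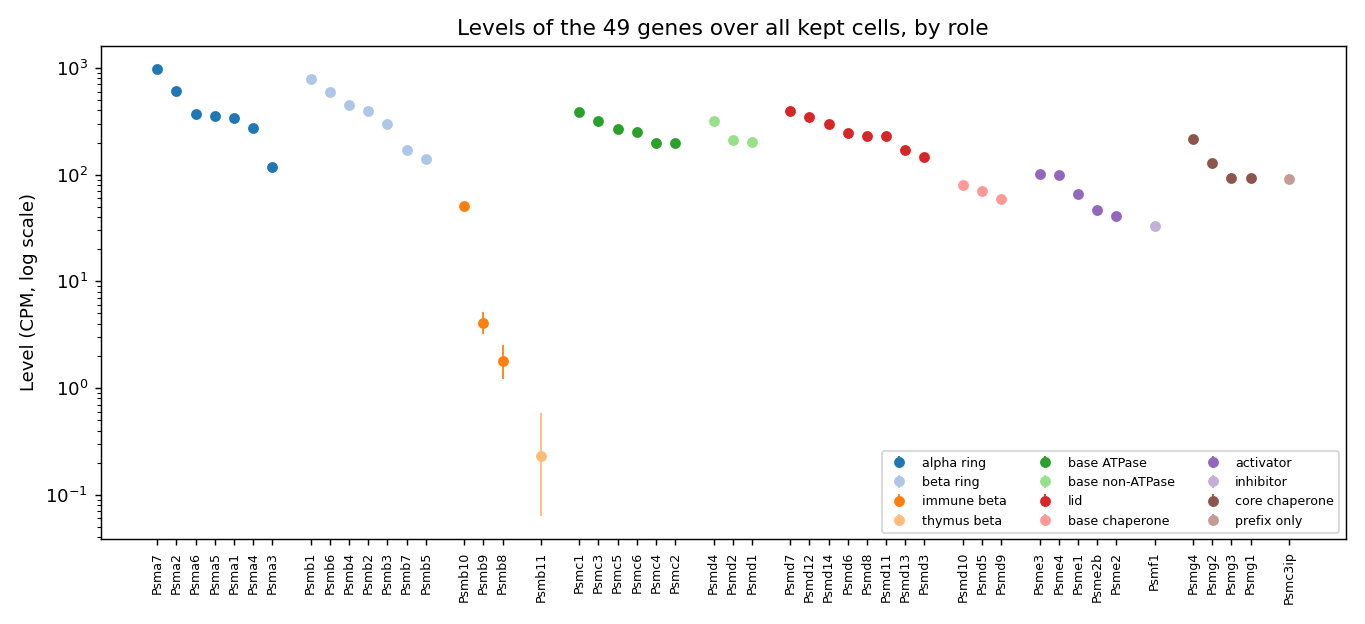
Level of each of the 49 genes over all kept cells, in CPM on a log axis, grouped by role and ordered by level within a role. Bars are 95% Poisson intervals; most are smaller than the points. The alpha ring spans 119 to 976 CPM and the lid 145 to 394 CPM, while Psmb8 and Psmb11 lie below 2.53 and 0.589 CPM at the upper ends of their intervals.

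Core transcripts outnumbered, per gene, those of the 8 lid genes under the symbol rule. Shfm1 of the lid, outside that rule at 1184 CPM, stood above every core gene. It is left out of every lid value given, and including it would lower the ratios of core and ATPases to the lid. Neither ratio was recomputed with Shfm1. The size of the core ratio and the direction of the ATPase ratio therefore hold only for these 8 lid genes. The mean level per gene was 419.6 CPM over the 14 core genes and 257 CPM over the 8 lid genes, a ratio of 1.63 (1.61 to 1.65). Of the 14 core genes, 6 stood above each of these 8 lid genes and 2, Psma3 and Psmb5, stood below each of them. Intervals overlapped for Psmb2, counted above, with Psmd7 and for Psmb5 with Psmd3. The core also exceeded the ATPases, at 1.55 (1.53 to 1.57). Alpha and beta genes averaged 434 and 405 CPM, a ratio of 1.07 (1.06 to 1.08), but the ratio of their medians was 0.906, so the order of the rings depends on the summary. The ATPase genes averaged 270.4 CPM and the lid genes 257 CPM, a ratio of 1.05 (1.04 to 1.07), which became 0.964 when genes with near-identical copies were left out. The same change moved the core to lid ratio to 1.87.

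The spread among subunits of 1 particle can be set beside that of other complexes. The coefficient of variation was 58.8% over the 14 core genes, 26.8% over the 6 ATPase genes and 33.0% over the 8 lid genes without Shfm1. It was 13.2% over the 8 genes of CCT, the cytosolic chaperonin, whose highest gene exceeded its lowest 1.51-fold. It was 62.5% over the 9 genes of the COP9 signalosome, a complex related in structure to the lid, and 57.6% over the 14 genes of the translation factor eIF3. The core was thus more uneven than CCT. It was not ranked against eIF3 and the COP9 signalosome, because their lists count gene pairs as separate subunits. These are Eif3j1 and Eif3j2, at 40.5 and 79.3 CPM, and Cops7a and Cops7b, at 111.1 and 35.4 CPM. The core list leaves out the immune counterparts.

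Some of these levels carry a known uncertainty of read assignment. In the GENCODE M21 annotation of mm10, 10 of the 49 genes had another transcript with at least 95% identity over at least 100 of the last 400 bases. These were Psma4, Psma5, Psmb3, Psmb5, Psmc1, Psmd2, Psme1, Psme2, Psme2b and, through a repeat, Psmb11. Psmb3 had 5 such copies. Exons of 12 of the 49 genes overlapped a gene on the opposite strand, among them Psmb9 with Tap1, Psme1 with Emc9 and Psmc3ip with Mlx, and exons of 4 overlapped one on the same strand. Whether counting used strand is not given in the sources used here.

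The factors that assemble and modify the proteasome were on average scarcer than its core, base and lid subunits, at means of 132 CPM per gene for core chaperones, 70.1 CPM for base chaperones and 70.8 CPM for activators. The core chaperone genes ran from Psmg1 at 92.1 CPM and Psmg3 at 92.6 CPM through Psmg2 at 129.7 CPM to Psmg4 at 215 CPM. Pomp, the core maturation factor outside the symbol rule, stood higher at 524 CPM. The base chaperones Psmd10, Psmd5 and Psmd9 were at 80.5, 70.5 and 59.4 CPM. Psmf1, encoding an inhibitor of the core, was at 33.1 CPM. Among activators, Psme3 and Psme4, which encode nuclear caps of the core, were at 101.1 and 99.1 CPM. The genes of the interferon-inducible cap were lower, with Psme1 at 66.5 CPM and Psme2 at 40.6 CPM, a Psme2 to Psme1 ratio of 0.611 (0.556 to 0.672). Psme2b on chromosome 11 (48945354 to 48946190) had 816 UMIs and its near-identical copy Psme2 on chromosome 14 (55587441 to 55591113) had 707, so how these UMIs divide between them is uncertain.

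The small lid subunit gene Shfm1, which the symbol rule leaves out, was higher than every member at 1184 CPM. All 18 listed cofactor genes in the table had at least 50 UMIs. They included Txnl1, a proteasome-bound thioredoxin, at 355 CPM, the deubiquitinases Uchl5 and Usp14 at 189.7 and 160.1 CPM, and Akirin2, which brings proteasomes into the nucleus, at 110.1 CPM. Nfe2l1, encoding the transcription factor that raises proteasome genes when the protease is inhibited, stood at 149 CPM and its relative Nfe2l2 at 211 CPM. The third relative Nfe2l3 had 1 UMI. The polyubiquitin gene Ubb was at 171 CPM.

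Promoter sequences of 42 of the 49 genes were matched in RefSeq (GRCm38.p6), among them 25 of the 31 core, base and lid genes. The 6 unmatched ones are Psmb1, Psmb2, Psmb7, Psmc3, Psmd3 and Psmd7. The 250 bases before the start were searched on both strands for the letters TGACNNNGC, the antioxidant response element bound by Nfe2l1 and Nfe2l2 with small Maf partners, and for CCGGAAG, a site of ETS factors. TGACNNNGC was present in 4 of the 25 promoters (16%), those of Psmb5, Psmb6, Psmc6 and Psmd12, against 10.1% of 27025 promoters of all genes. CCGGAAG was present in 8 of the 25 (32%), those of Psmc1, Psmc2, Psmc6, Psmd2, Psmd4, Psmd6, Psmd11 and Psmd12, against 7.05% of all. Only the first listed promoter was counted for each gene, and a further listed promoter of the core gene Psma6 also holds CCGGAAG. Of the other motifs searched, GGGCGG was present in 56% of the 25 promoters against 32.9% of all, CCAAT in 40% against 34.5% and TTCNNNGAA, the interferon-gamma activated site, in 0 of 25 against 7.18%. An interferon-stimulated response element was present in 2 of 25 (8%) against 3.04%. A nuclear respiratory factor site was present in 1 of 25 (4%) against 0.781%, and an NF-kB site in 0 of 25 against 0.130%. Psmc6 and Psmd12 held both motifs, at places that did not overlap. Windows are shown for the 4 of these core, base and lid genes that hold a match to TGACNNNGC or CCGGAAG and no annotated exon in the 250 bases, and for the catalytic gene Psmb5. They are the last 150 bases before the start, cut back by 27 bases of exon for Psmb5. Capitals mark matches to TGACNNNGC and CCGGAAG only, and each line reads 5′ to 3′ on the strand of the gene.
Psmb6 (chr11:70525207-70525356, plus strand): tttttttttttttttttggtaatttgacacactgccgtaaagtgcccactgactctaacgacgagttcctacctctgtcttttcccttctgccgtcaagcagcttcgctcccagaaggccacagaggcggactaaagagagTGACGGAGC
Psmb5 (chr14:54618023-54618145, minus strand): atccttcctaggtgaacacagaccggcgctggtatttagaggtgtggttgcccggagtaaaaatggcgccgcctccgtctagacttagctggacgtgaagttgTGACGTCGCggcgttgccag
Psmd4 (chr3:95042615-95042764, minus strand): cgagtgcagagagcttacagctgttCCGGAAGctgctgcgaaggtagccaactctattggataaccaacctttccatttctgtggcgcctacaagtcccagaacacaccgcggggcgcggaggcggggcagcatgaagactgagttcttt
Psmd2 (chr16:20651502-20651651, plus strand): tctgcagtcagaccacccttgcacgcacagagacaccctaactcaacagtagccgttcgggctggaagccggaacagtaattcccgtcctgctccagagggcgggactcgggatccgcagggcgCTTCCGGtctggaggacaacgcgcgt
Psmd11 (chr11:80428465-80428614, plus strand): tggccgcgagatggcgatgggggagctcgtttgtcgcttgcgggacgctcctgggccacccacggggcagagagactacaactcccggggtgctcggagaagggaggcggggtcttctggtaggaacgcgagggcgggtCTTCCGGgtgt
The match in Psmb6 covers bases 9 to 1 before the start and that in Psmb5 bases 47 to 39. In Psmd11 and Psmd2 the ETS letters read on the opposite strand, at bases 11 to 5 and 26 to 20, and in Psmd4 they lie at bases 125 to 119 on the strand of the gene. A match describes these letters and shows no binding.

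The immune subunits were scarce at 2 of the 3 catalytic sites. Psmb9 (chromosome 17, 34181987 to 34187764), the immune counterpart of the caspase-like subunit, had 71 UMIs beside 10290 of the constitutive Psmb6, a share of 0.685% (0.536 to 0.864). Psmb8, the counterpart of the chymotrypsin-like subunit, had 31 UMIs beside 2448 of Psmb5, a share of 1.251% (0.851 to 1.77). Psmb10 (chromosome 8, 105935735 to 105938444), the counterpart of the trypsin-like subunit, had 877 UMIs beside 2992 of Psmb7, a share of 22.7% (21.4 to 24.0). The sites therefore differed, with Psmb10 at 50.4 CPM against 4.08 CPM for Psmb9 and 1.78 CPM for Psmb8. Together the immune genes made up 5.86% (5.51 to 6.23) of the UMIs of the 6 catalytic genes, and 877 of these 979 immune UMIs were Psmb10. Psmb11, the thymus-specific counterpart, had 4 UMIs, or 0.230 CPM (0.0627 to 0.589), which gives the level of a gene that neural cells should lack.

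Genes that work with the immunoproteasome ranged widely. The class I antigen genes B2m and H2-K1 stood at 261 and 234 CPM and H2-D1 at 56.9 CPM. The peptide transporter genes Tap1 and Tap2, which lie beside Psmb9 and Psmb8 in the genome, stood at 7.70 and 3.91 CPM. Irf1, encoding a transcription factor of the interferon response, was at 5.63 CPM. The induced genes Ifit1, Ifit3, Irf7 and Isg15 had 1, 1, 2 and 7 UMIs in all cells, so their expression was at or near the limit of detection at this depth.

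Differences between cell states were read from 10 clusters made without the members, the genes of the other lists, mitochondrial genes or ribosomal protein genes. Genes that vary with the held-out genes could remain, so clusters and readouts are not fully independent. Cluster 1 (722 cells) was S-phase-like: 23 of 23 S phase genes had the whole interval of their ratio to the other cells above 1.5, the limit used for marker genes, which count as below where the interval lies under the inverse of 1.5. Cluster 2 (681 cells) was led by the Notch ligand genes Dll3 and Dll1 among others and stays unnamed. In cluster 3 (630 cells) the G2/M list had 26 of 26 genes below and the S phase list 19 of 23. Cluster 4 (474 cells) was G2/M-like, with 26 of 26 G2/M genes above. Cluster 5 (450 cells) was led by Tuba1c and the mitotic genes Cenpa, Cdc20 and Ccnb2, with 11 of 26 G2/M genes above. Cluster 6 (396 cells) was led by Mndal, Ifi203 and Apoe, again with 26 of 26 G2/M genes below. Cluster 7 (144 cells) was led by the nuclear RNA Malat1 and had a median of 1106 UMIs. Cluster 8 (127 cells) had 11 of 11 hypoxia response genes above, cluster 9 (110 cells) had 8 of 10 genes of the ATF4-CHOP stress response above, and cluster 10 (31 cells) was neuron-like, with 11 of 12 neuron markers above.

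Summed proteasome gene levels varied little among most clusters. Set against all other cells, they were highest in cluster 5, at 12668 against 11429 CPM, a ratio of 1.11 (1.09 to 1.12). Clusters 2, 4 and 6 had ratios of 1.05, 1.02 and 1.004, and clusters 9, 1 and 3 had ratios of 0.992, 0.987 and 0.958. Clusters 7, 8 and 10 stood lower. Cluster 7 had 9345 CPM against 11603 CPM in the other cells, a ratio of 0.805 (0.777 to 0.834). Cluster 8 had 9411 against 11616 CPM, a ratio of 0.810 (0.786 to 0.835), and cluster 10 had 9676 against 11568 CPM, a ratio of 0.836 (0.779 to 0.897).

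**Figure D2:**
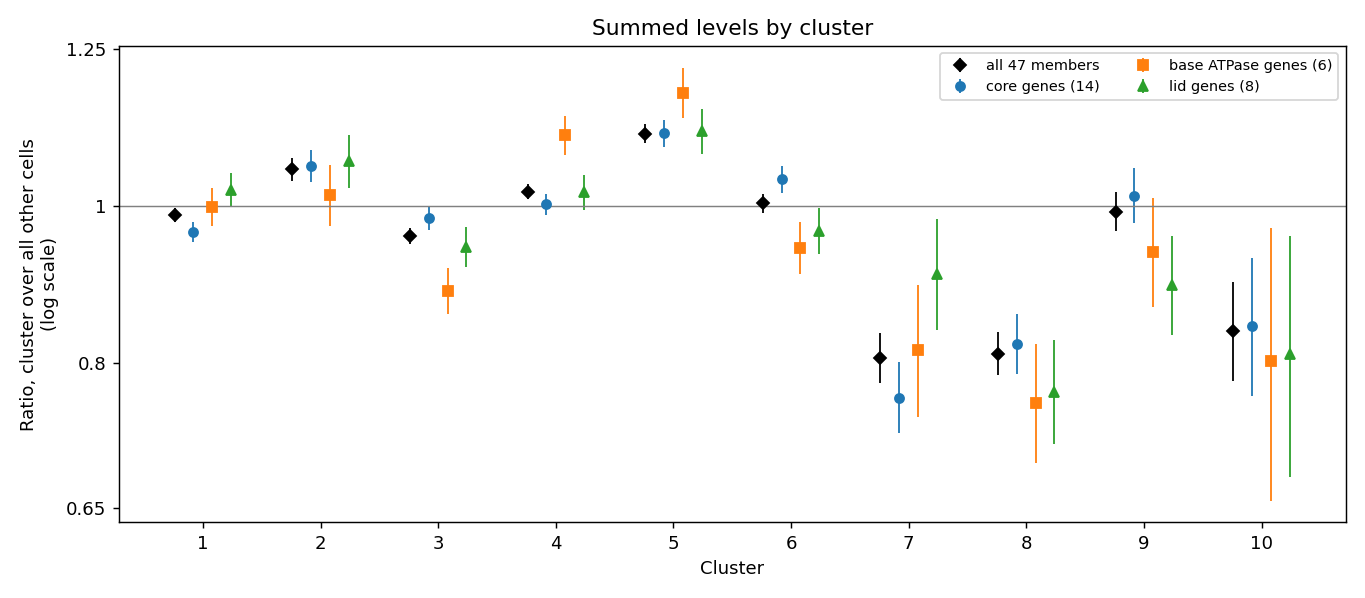
Ratio of the summed level in each cluster to that in all other cells, on a log axis, for all 47 members, the 14 core genes, the 6 base ATPase genes and the 8 lid genes, with 95% counting intervals. Cluster 5 lies above 1 for every group and clusters 7, 8 and 10 below 1 for every group. In clusters 3, 4, 5 and 6 the intervals of the ATPase and core ratios do not overlap.

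Most members shared the direction of the total in clusters 5, 7, 8 and 10. In cluster 5, 39 of 47 members had a ratio above 1, against 38.2% of all genes with at least 50 UMIs, and the member median was 1.10 against 0.932 for all genes. In cluster 7, 4 of 47 were above 1, against 54.1% of all genes, with medians of 0.796 and 1.05. In cluster 8, 7 of 47 were above 1, against 47.8% of all genes, with medians of 0.794 and 0.974. In cluster 10, 8 of 47 were above 1, against 45.1% of all genes, with medians of 0.799 and 0.885.

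In the other clusters between 17 and 35 members were above 1. Cluster 2 had 35 of 47 members above 1, against 41.7% of all genes, and cluster 4 had 30, against 41.8%. Cluster 9 had 24 (42.6% of all genes) and cluster 1 had 23 (45.3% of all genes). Cluster 6 had 21 (50.6% of all genes) and cluster 3 had 17 (53.3% of all genes). The member medians lay between 0.981 in cluster 3 and 1.05 in cluster 2.

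Few single genes departed far from the other cells. A gene was called where the whole interval of its ratio lay below 0.8 or above its inverse, and 9 such calls were made among 470 pairs of a member and a cluster (1.91%), against 7.91% of the pairs over all genes. The 9 became 4 at a limit of 1.5-fold, and 17 where the listed genes were allowed among the clustering genes. Psmc3ip, the gene that is no subunit, accounted for 3 of the 9. The remaining 6 calls concerned 6 genes, Psma3, Psma7, Psmb10, Psmc4, Psme1 and Psme3. The highest and lowest ratios named for each cluster are among the members with at least 200 UMIs over all cells, which leaves out Psmb9. Psmb9 had between 0 and 18 UMIs in a cluster, and the interval of its ratio included 1 in each of the 10.

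In the S-phase-like cluster 1, 1 of 47 members was called higher, against 3.88% of all genes, and 0 lower, against 2.51%. The call was Psmc3ip (chromosome 11, 101091823 to 101095436), at 123 CPM in cluster 1 and 81.4 CPM in the other cells, a ratio of 1.51 (1.36 to 1.68). Next highest were the nuclear activator gene Psme3 at 1.14 and the lid gene Psmd13 at 1.09. The lowest ratios were those of Psma3 at 0.809, the base chaperone gene Psmd10 at 0.821 and Psmb6 at 0.887. The core as a whole had a ratio of 0.964 (0.9504 to 0.978) and the lid one of 1.02 (0.999 to 1.05) in this cluster, so the core to lid ratio was 1.56 (1.52 to 1.60).

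In the G2/M-like cluster 4, 0 of 47 members were called higher, against 4.11% of all genes, and 1 lower, against 4% of all genes. The lower one was Psmb10, at 31.9 CPM in cluster 4 and 55.5 CPM in the other cells, a ratio of 0.576 (0.470 to 0.699). The immune share was 3.53% (2.96 to 4.18), the lowest of the 10 clusters. Also low were the core chaperone gene Psmg3 at 0.712 and Psme1 at 0.827. The highest ratios were those of Psmc3ip at 1.27, the core chaperone gene Psmg2 at 1.23 and the ATPase gene Psmc4 at 1.23.

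The ATPase ratios all lay on the same side of 1 in clusters 3, 4, 5, 7 and 8. All 6 had ratios above 1 in cluster 4, between 1.04 for Psmc5 and 1.23 for Psmc4, and their sum was at 1754 CPM against 1586 CPM in the other cells, a ratio of 1.11 (1.08 to 1.14). All 6 were above 1 in cluster 5 too, where their sum was 1872 CPM against 1593 CPM, a ratio of 1.18 (1.13 to 1.22). All 6 were below 1 in cluster 3, between 0.796 for Psmc2 and 0.932 for Psmc1, with a sum of 1464 CPM against 1653 CPM, a ratio of 0.886 (0.857 to 0.915). They were all below 1 in clusters 7 and 8 too, with sums at 0.814 (0.740 to 0.893) and 0.755 (0.693 to 0.822). The core ratios of clusters 3, 4, 5, 7 and 8 were 0.982, 1.003, 1.11, 0.761 and 0.821. Core over ATPases gave 1.44 (1.40 to 1.48) in cluster 4 and 1.47 (1.42 to 1.53) for cluster 5. The same ratio was 1.69 (1.64 to 1.75) in cluster 3, 1.69 (1.63 to 1.76) for cluster 6 and 1.68 (1.54 to 1.83) for cluster 9. Clusters 3, 6 and 9 thus held fewer ATPase transcripts for each core transcript than clusters 4 and 5. All 26 G2/M genes were below in clusters 3, 6 and 9. The other clusters lay between 1.44 and 1.69, with cluster 7 beside clusters 4 and 5 and cluster 8 beside clusters 3, 6 and 9. Cluster 8, with 15 of 26 below, was at 1.68 (1.53 to 1.85), and cluster 7, with 2 of 26 below, at 1.45 (1.31 to 1.62). Cluster 1, with 14 below, was at 1.51, cluster 2, with 23 below, at 1.61 and cluster 10, with 15 below, at 1.63. The part of the cell cycle was not tested.

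Cluster 5 had the broadest elevation. All 14 core genes had ratios above 1, between 1.03 for Psmb7 and 1.23 for Psma3, as did all 8 lid genes, between 1.01 for Psmd11 and 1.22 for Psmd7. None of the 47 was called higher, against 1.1% of all genes, and 0 lower, against 3.74%. The highest ratio was that of Psmc6, at 325 CPM in cluster 5 and 244 CPM in the other cells, or 1.33 (1.22 to 1.45), followed by Psma3 and by the base chaperone gene Psmd5 at 1.22. The lowest were the genes of the interferon-inducible cap, Psme2b at 0.727, Psme2 at 0.734 and Psme1 at 0.790. The chaperonin CCT also stood higher, at 1.14 (1.11 to 1.17), and eIF3 at 1.05 (1.02 to 1.07).

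In cluster 3, 0 of 47 members were called higher, against 3.89% of all genes, and 1 lower, against 6.61%. The call was Psmc3ip, at 60.7 CPM in cluster 3 and 97.9 CPM in the other cells, a ratio of 0.620 (0.527 to 0.726), followed by Psmg2 at 0.780 and Psmc2. The highest were Psme1 at 1.22, Psmd10 at 1.21 and Psmb10 at 1.19. In cluster 6, 0 members were called higher, against 4.22% of all genes, and 1 lower, against 5.93%. It was again Psmc3ip, at 52.8 CPM in cluster 6 and 96.9 CPM in the other cells, a ratio of 0.545 (0.443 to 0.663), with Psmf1 at 0.722 and Psmc4 at 0.834 next. The highest in cluster 6 were Psmb10 at 1.39 (1.15 to 1.67), Psme2b at 1.38 and Psme2 at 1.26, and its immune share was 7.80% (6.67 to 9.05). Psmb9 had a ratio of 1.70 (0.854 to 3.14) in cluster 6, from 13 UMIs. Psmb8, which lies under the UMI minimum and so was not called, had 10 of its 31 UMIs in cluster 6, a ratio of 3.61 (1.52 to 8.01), and 1 UMI in cluster 4, a ratio of 0.122 (0.00300 to 0.735).

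Psmb10, Psme2b and Psme2 also had the highest ratios in cluster 9, the cluster of the ATF4-CHOP response. Psmb10 was at 79.7 CPM in cluster 9 and 49.7 CPM in the other cells, a ratio of 1.60 (1.11 to 2.25) from 35 UMIs. Psme2b had a ratio of 1.47 and Psme2 one of 1.36, both with intervals that included 1, and these genes are near-identical copies. The lowest were Psmd13 at 0.682, Psmc3ip at 0.765 and Psmc6 at 0.7998. None of the 47 was called, against 1.72% of all genes called higher and 3.53% called lower. The lid stood at 0.893 (0.832 to 0.958) and the core at 1.01 (0.976 to 1.05), so the core to lid ratio of 1.85 (1.71 to 2.003) was the highest of the 10 clusters. Its interval overlapped those of clusters 3, 6, 8 and 10, whose ratios were 1.69, 1.74, 1.74 and 1.70. In cluster 2, 0 members were called higher, against 0.561% of all genes, and 0 lower, against 2.07%. There the highest were Psmg3 at 1.34, Psmd10 at 1.32 and Psmf1 at 1.22, and the lowest Psmc3ip at 0.826, Psmb10 at 0.879 and Psme3 at 0.893. The interval of Psmf1 included 1, and no member in cluster 2 had its whole interval below 1.

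**Figure D3:**
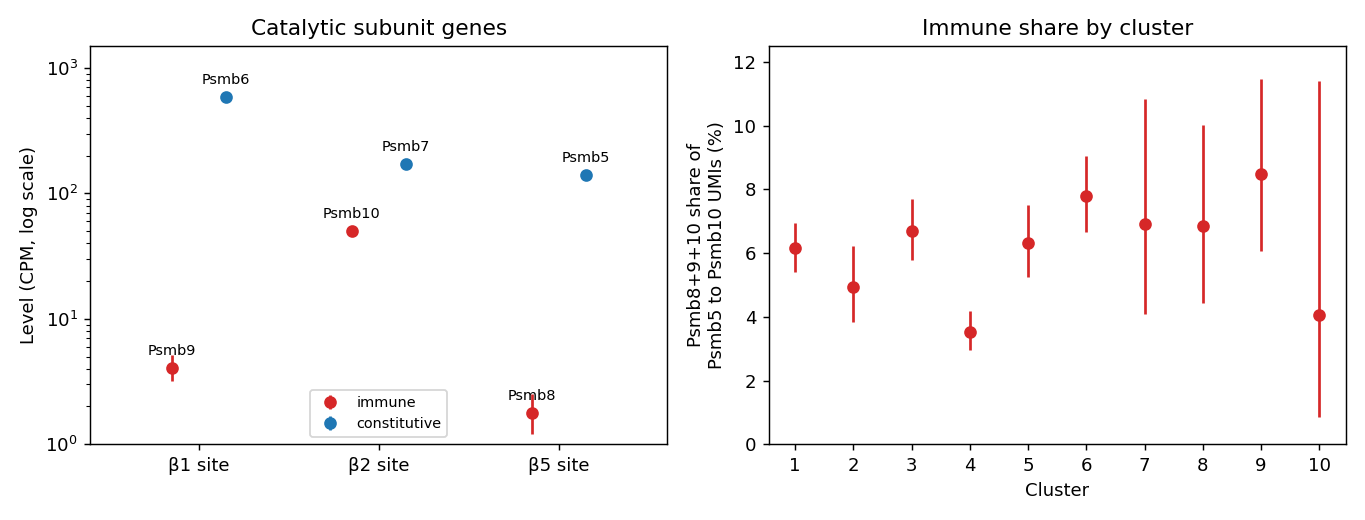
Left, levels of the immune and constitutive catalytic genes at each site, in CPM on a log axis with 95% Poisson intervals. Right, the share of Psmb8, Psmb9 and Psmb10 in the UMIs of Psmb5 to Psmb10 in each cluster, with 95% binomial intervals; it is lowest in cluster 4, at 3.53%, and highest in cluster 9, at 8.48%.

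In cluster 8, the hypoxia response cluster, 0 of 47 members were called higher, against 6.52% of all genes, and 3 lower, against 4.16%. Psme3 was at 42.1 CPM in cluster 8 and 103 CPM in the other cells, a ratio of 0.411 (0.247 to 0.643). Psmc4 was at 86.5 against 202 CPM, a ratio of 0.428 (0.304 to 0.587), and Psma3 at 66.5 against 119.9 CPM, a ratio of 0.555 (0.373 to 0.795). These rest on 19, 39 and 30 UMIs in the cluster. Every alpha, ATPase, other base and lid gene had a ratio below 1. Among beta genes Psmb4 was at 1.02 and the ring as a whole at 0.886 (0.834 to 0.940), against 0.761 (0.715 to 0.809) for the alpha ring. The highest ratios were those of Psme1 at 1.38, Psme2 at 1.09 and Psme4 at 1.08, but no member had its whole interval above 1. The activator genes together, with Psme3 among them, stood at 0.931 (0.786 to 1.096).

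Other complexes were low in cluster 8 as well, with ratios of 0.708 (0.668 to 0.751) for CCT, 0.7996 (0.723 to 0.882) for the COP9 signalosome and 0.933 (0.890 to 0.977) for eIF3. The genes of antigen presentation and interferon stood instead at 1.37 (1.23 to 1.52). Of these 8 genes 1 was called higher, against 6.52% of all genes. It was B2m, at 393 CPM in cluster 8 and 257 CPM in the other cells, a ratio of 1.53 (1.31 to 1.77). Cluster 8 also held fewer G2/M transcripts, with 15 of 26 genes below and a summed ratio of 0.475. Clusters 3, 6 and 9, where 26 of 26 G2/M genes were below, had summed member ratios of 0.958, 1.004 and 0.992. Astrocyte markers were also higher in cluster 8, with 4 of 7 genes above and a summed ratio of 3.44 (3.25 to 3.65). The ATF4-CHOP list had 2 of 10 genes above and a summed ratio of 2.004, and the nuclear RNA list 1 of 4 above and 1.52. The part of these in the lower proteasome level was not tested.

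In cluster 7, led by Malat1, 0 members were called higher, against 9.71% of all genes, and 1 lower, against 1.5%. The lower one was Psma7, at 661 CPM in cluster 7 and 983 CPM in the other cells, a ratio of 0.673 (0.587 to 0.767). By ratio the lowest were Psme2 at 0.355 from 5 UMIs, Psme2b at 0.556 and Psmd5 at 0.618, and the highest Psme4 at 1.37, Psmd1 at 1.18 and Psmd11 at 1.18. No member in cluster 7 had its whole interval above 1. The core, at 0.761 (0.723 to 0.8003), was lower than the lid, at 0.907 (0.838 to 0.981), and the core to lid ratio of 1.37 (1.251 to 1.51) was the lowest of the 10 clusters. Its interval overlapped that of cluster 10, at 1.70 (1.40 to 2.08). Malat1 took 20986 CPM in cluster 7 and 2855 CPM in the other cells, and mitochondrial genes took 4.27% of the cluster's UMIs against 3.03% over all kept cells. The part of nuclear RNA in these values was not tested.

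In the neuron-like cluster 10, 1 of 47 members was called higher, against 6.9% of all genes, and 0 lower, against 2.43%. Psme1 was at 183 CPM in cluster 10 and 66.0 CPM in the other cells, a ratio of 2.77 (1.54 to 4.58) that rests on 15 UMIs of a gene with a near-identical copy. Next were Psmd2 at 1.21 and Psmd14 at 1.18, and the lowest were Psme2 at 0.298, Psme2b at 0.518 and Psmc2 at 0.558. Intervals of the ratios of Psmd2, Psmd14, Psme2, Psme2b and Psmc2 all included 1. Psme2 and Psme2b are near-identical copies of each other. Core, ATPases and lid had ratios of 0.843 (0.763 to 0.929), 0.802 (0.657 to 0.970) and 0.810 (0.680 to 0.958), which overlap. CCT stood at 0.692 (0.601 to 0.794), the COP9 signalosome at 0.808 (0.635 to 1.01) and eIF3 at 0.940 (0.841 to 1.05). The nuclear RNA list had 1 of 4 genes above and a summed ratio of 1.97 (1.81 to 2.13), mitochondrial genes took 4.06% of UMIs and the median cell had 1825 UMIs. The part of RNA quality in these values was not tested.

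Depth moved with the total. The cells were ordered by UMIs and split into 3 groups of 1255. The summed member level was 10996 CPM in the shallow group, 11566 CPM in the middle group and 11681 CPM in the deep group, while Malat1 stood at 6094, 2907 and 2714 CPM. Ratios were therefore recomputed among cells of the same depth group. Cluster 5 kept a ratio above 1 in each group, at 1.14, 1.11 and 1.11 from lowest to highest depth. Cluster 8 was below 1 in each, at 0.739, 0.809 and 0.859, and cluster 10 at 0.850, 0.865 and 0.849, the last 2 from 5 and 2 cells. Cluster 7 was different: its ratio was 0.546 (0.507 to 0.588) over 114 cells of the shallow group, 0.810 (0.738 to 0.887) over 12 cells of the middle group and 0.992 (0.948 to 1.04) over 18 cells of the deep group. Cluster 4 gave 0.895 (0.823 to 0.973) over 24 cells of the shallow group, 0.998 in the middle group and 1.02 (1.004 to 1.03) in the deep group, so its direction differed between depth groups. Cluster 1 gave 0.935, 0.994 and 0.979, and cluster 3 gave 0.912, 0.945 and 0.971. Ratios of clusters 6 and 9 lay between 0.971 and 1.04. Cluster 2 went the other way from cluster 7, with 1.16 (1.13 to 1.19), 1.09 and 1.02 in the 3 groups, the last from 4 cells.

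**Figure D4:**
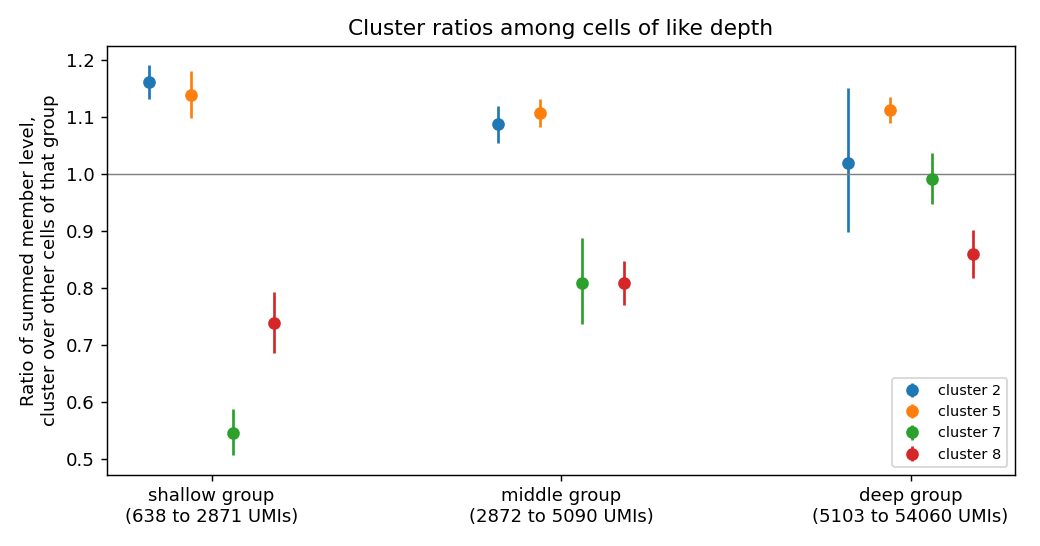
Ratio of the summed member level in clusters 2, 5, 7 and 8 to that in the other cells of the same depth group, each holding 1255 cells, with 95% counting intervals. Cluster 7 runs from 0.546 in the shallow group to 0.992 in the deep group, while cluster 5 stays between 1.11 and 1.14.

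To compare single cells at equal depth, 1000 UMIs were drawn from every cell, which left 3576 cells and dropped 189 shallower ones, 97 of them from cluster 2 and 64 from cluster 7. Of the 1000 UMIs, a mean of 11.4 and a median of 11 came from the 47 members, with 5 and 18 at the 5th and 95th percentiles and a range of 0 to 27. The variance was 1.27 times the mean. This quotient grows with the mean, so lists of unlike level are not ranked by it. Among the other lists, eIF3 and the G2/M genes had close means, 4.33 and 4.30 UMIs, and quotients of 1.05 and 6.78. The mean was 12.4 in cluster 5, 9.17 in cluster 8 and 8.06 in cluster 7. In cluster 7 the variance was 2.51 times the mean, the largest quotient of the 10 clusters, over the 80 cells that were deep enough.

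**Figure D5:**
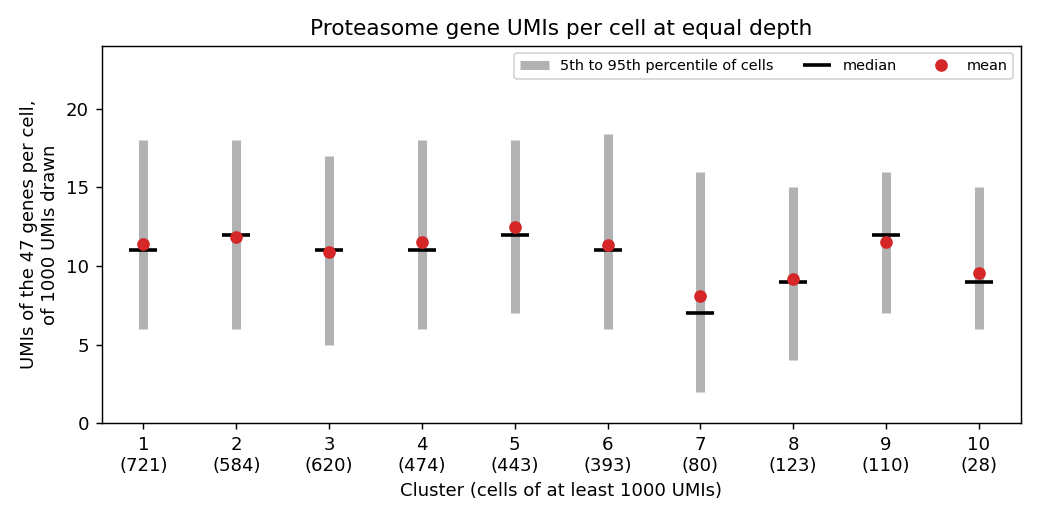
UMIs of the 47 members per cell after each cell was thinned to 1000 UMIs, by cluster, with the number of cells below each cluster. Bars span the 5th to 95th percentile, dashes are medians and points are means; the means run from 8.06 in cluster 7 to 12.4 in cluster 5.

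Of the pathway genes outside the symbol rule, Uchl5, the deubiquitinase that docks on the base, was called in 5 clusters. It was at 245 CPM in cluster 4 and 175 CPM in the other cells, a ratio of 1.40 (1.30 to 1.51). It was at 111 CPM in cluster 3 and 205 CPM in the other cells, a ratio of 0.538 (0.478 to 0.605), and was lower in clusters 6, 8 and 9 as well, at 0.638, 0.473 and 0.558. Akirin2 was at 173 CPM in cluster 4 and 93.1 CPM in the other cells, a ratio of 1.86 (1.69 to 2.04), and at 0.687 in cluster 1. In the neuron-like cluster 10 it was at 243 CPM against 109.5 CPM, a ratio of 2.22 (1.36 to 3.44) from 20 UMIs. Zfand5 was called higher there too, at 2.21, which made 2 of 18 cofactor genes, against 6.9% of all genes. In cluster 7, 2 of the 18 cofactor genes were called higher, Nploc4 at 2.50 and Ubqln4 at 2.09, against 9.71% of all genes. Shfm1 was called lower there, at 0.675, against 1.5% of all genes. Ubb was at 1.37 (1.26 to 1.49) in cluster 4. In cluster 9, 2 of the 8 NRF2 target genes were called higher, against 1.72% of all genes, Slc7a11, the cystine transporter gene, at 6.12 (3.76 to 9.55) and Hmox1 at 3.72 (2.62 to 5.15). In cluster 8, 2 were called higher too, Hmox1 at 2.46 and Sqstm1 at 1.85, against 6.52% of all genes. Txnrd1 was called lower there, at 0.628, against 4.16% of all genes. Single NRF2 targets were called higher in cluster 6 (Srxn1 at 2.17, against 4.22% of all genes) and cluster 7 (Gclc at 2.31, against 9.71%). Called lower were 1 in cluster 1, 2 in cluster 3 and 1 in cluster 4, against 2.51%, 6.61% and 4% of all genes. The proteasome members as a group stood at 0.992 in cluster 9 and 0.810 in cluster 8. The cause of these target gene levels was not tested.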

How the data were processed

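The authors deposited raw UMI counts, with genes in rows and barcodes in columns. The genome build was mm10, per the submitters' processing notes; how reads were aligned, counted and assigned to strands is not given in the sources used here. From 4000 barcodes with 17591915 UMIs, 3765 were kept that had at least 500 genes and no more than 10% mitochondrial UMIs, and 235 were left out. The last base was unread in 285 barcodes, and 25 barcode pairs are 1 base apart. No barcode maps to a sample, so each value is of 1 pooled sample, and edgeR, planned had samples been separable, could not be used. Levels are summed counts per 1000000 UMIs (CPM). Intervals are exact at 95% (Poisson for levels, Clopper-Pearson for shares, conditional binomial for ratios) and cover counting error, not variation between cultures.

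For clustering, log values of counts scaled to 10000 were used for genes seen in at least 5 cells. From 2000 variable genes, 30 components and 15 neighbours, Leiden clustering (scanpy 1.11.5, leidenalg 0.10.2, resolution 0.8, seed 0) was run with 412 listed genes, mitochondrial and ribosomal protein genes held out. No doublet caller was run; leaving out 52 cells above 15000 UMIs is an alternative. In each cluster the members named are the 3 highest and 3 lowest ratios among those with at least 200 UMIs, and every call. The members and lists were chosen with earlier results of these data known. The other tools were matplotlib 3.10.9, scipy 1.17.1, anndata 0.12.19, numpy 2.4.6, pandas 2.3.3 and Python 3.11.15. Positions are from GENCODE M21.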

Additional observations from a re-analysis of the deposited data

How the results depend on the processing

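With 1 pooled sample, counting intervals are the only error given, and variation between cultures is unknown. Clusters 7 to 10 held few UMIs, so moderate departures of low members could be missed there. Of 190 alternative values, 144 stayed within the counting interval of the value reported, or within 1.5-fold for the number of calls, 41 moved beyond it and 5 changed direction. A change of direction was counted only where the reported interval lay wholly on 1 side of 1. Clusters 6 and 9, whose intervals include 1, also crossed 1, and those values count as stayed or moved. No paired analysis was possible because the labels give 1 group and the columns carry no sample. Each alternative clustering was matched to the 10 clusters by shared cells, and clusters whose best match had an overlap (Jaccard index) under 0.3 gave no value: 7 and 9 at 200 genes and at the 5% limit, 2, 7 and 10 at 1000 genes, 5 and 9 with no limit, 5 and 6 without unread barcodes, 6, 7 and 9 at resolution 0.4, 10 with another seed and 6 with the lists allowed. The causes were not tested.

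The summed member level was 11641.6 CPM at a mitochondrial limit of 5%, 11314 with each cell weighted equally, 13063 scaled without mitochondrial and ribosomal protein genes, 11363 after thinning and 11467 without Psmc3ip. Without genes that have near-identical copies the ratios were 1.87 for core to lid, 1.005 for alpha to beta and 0.964 for ATPase to lid, and by medians 1.53, 0.906 and 1.10.

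Cluster ratios moved as follows. With at least 200 genes they were 0.936 (cluster 3), 1.14 (5), 0.979 (6) and 0.839 (8), and with at least 1000 genes 1.13 (5), 0.964 (6, merged there with 3) and 0.899 (8). At a 5% mitochondrial limit they were 0.987 (3) and 0.975 (6), and with none 1.10 (2), 0.997 (3), 1.04 (4) and 0.969 (6). Without barcodes ending in an unread base they were 1.11 (2), 1.002 (3), 1.03 (4), 0.906 (7) and 0.842 (8). With each cell weighted equally they were 1.0003 (1), 1.07 (2), 1.02 (6) and 0.613 (7), and after thinning 1.001 (1) and 0.705 (7). Scaled without mitochondrial and ribosomal protein genes they were 1.01 (4) and 1.03 (9). Leiden resolution 0.4 gave 1.11 (2, merged there with 5), resolution 1.2 gave 1.07 (6) and another seed 0.970 (3), 1.13 (5) and 0.971 (6). With the lists allowed among clustering genes the ratios were 0.677 (7) and 0.849 (8). Ratios crossed 1 in clusters 1, 3, 6 and 9, all close to 1 in value. Clusters 5, 7, 8 and 10 kept their direction wherever they were matched. The 9 calls became 17 with the lists allowed among clustering genes and 4 at 1.5-fold.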
